A study of Mus musculus with 6 samples.

Results

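Open chromatin at genes of fatty acid and phospholipid metabolism was examined in mouse pancreatic islets by ATAC-seq, which maps accessible DNA by the places where the Tn5 transposase can insert sequencing adapters. The list held 36 protein-coding genes of 21883 in the gene table used, grouped here by role into 5 genes of fatty acid activation and uptake, 10 of β-oxidation, 10 of fatty acid synthesis, 7 of membrane phospholipid remodelling and 4 transcription factors. Acsl4, the gene delivered by the virus, was left out. A gene was called marked in a library when a deposited peak overlapped the 1000 bp on either side of the start or the end of the gene, called a gene end below.

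The 6 libraries fell into 3 groups of 2. Knockout-Acsl4 islets came from βRicKO mice, whose name and the study's title give as lacking Rictor, a part of mTORC2, in β-cells, and received an adenovirus carrying Acsl4. Knockout-GFP islets came from the same βRicKO genotype and received the GFP control virus Ad-GFP. Control-GFP islets came from mice labelled wildtype and also received Ad-GFP. Every mouse was 16 weeks old, every group was exposed to an adenovirus ex vivo for 48 h, and 50 islets were lysed per sample. Neither the Cre driver nor the number of mice behind a library is stated in the labels, and replicates may be separate mice or not, so the spread between them may be technical. Islets also hold cells other than β-cells, so a site that is open in fewer cells and a site that is less open in each cell cannot be told apart.

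Fatty acids enter metabolism as acyl-CoAs, which are made by long-chain acyl-CoA synthetases such as those of the Acsl family. Acyl-CoAs are then burned in mitochondria by β-oxidation, lengthened and desaturated, or built into phospholipids, where lysophosphatidylcholine acyltransferases of the Lpcat family exchange the fatty acids of membranes. Acsl4 prefers long polyunsaturated fatty acids, and membranes rich in these are prone to peroxidation. In β-cells, fatty acid handling bears on insulin secretion and on lipotoxic stress.

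The lists differed widely in content. They held 525 and 5874 peaks in knockout-Acsl4 1 and 2, 2206 and 4257 in knockout-GFP 1 and 2, and 4442 and 1628 in control-GFP 1 and 2. Read depth was unknown, and the number of peaks is not taken as a measure of it, because a longer list did not mean more peaks at gene ends. The share of peaks at gene ends was 5.28% in knockout-Acsl4 2, the longest list, and 35.8% in knockout-Acsl4 1. It was 67.1% and 75.5% in knockout-GFP 1 and 2, and 70.9% and 21.7% in control-GFP 1 and 2. Over all protein-coding genes, only knockout-GFP 1, knockout-GFP 2 and control-GFP 1 marked more than a small share, and the other 3 libraries, which include both of the knockout-Acsl4 group, marked 1.02% to 2.0% of genes. A gene without a peak in those 3 lists is therefore not shown to be closed. Of 15 β-cell marker genes, Mafa and Nkx6-1 were marked in knockout-GFP 2 and control-GFP 1 and Pcsk2 in control-GFP 1, while the other 12, Ins1 and Ins2 included, had no gene-end peak in any library. None of 7 markers of other islet endocrine cells was marked, and none of 10 immune, endothelial and stromal, 4 adipocyte or 4 hepatocyte markers. A single gene of 8 acinar and ductal markers was marked, in knockout-GFP 2.

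In all, 13 of the 36 lipid genes (36.1%) were marked in at least 1 library, where 24.5% of all protein-coding genes were. At least 2 libraries marked 7 of them (19.4%, against 13.9% of all genes), and at least 3 libraries marked 3 of them (8.33%, against 6.51% of all genes). These were Acsl1 in 4 libraries and Acadm and Lpcat3 in 3 each. In knockout-Acsl4 1 none of the 36 was marked, which allows a share of up to 8.33% at a limit of 3 counts, or 9.74% by the exact 95% interval, and 1.02% of all genes were. Knockout-Acsl4 2 marked 1 member (2.78%, exact 95% interval 0.0703 to 14.5), beside 1.57% of all genes. Knockout-GFP 1 marked 5 (13.9%, 4.67 to 29.5), beside 8.19%, and knockout-GFP 2 marked 9 (25.0%, 12.1 to 42.2), beside 17.3%. Control-GFP 1 marked 8 (22.2%, 10.1 to 39.2), beside 16.7%, and control-GFP 2 marked 1 (2.78%, 0.0703 to 14.5), beside 2.0%. The member counts thus followed the number of genes that each library marked in all, and in every library the interval of the member share held the share over all genes. These exact Clopper-Pearson intervals cover counting error only.

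**Figure D1:**
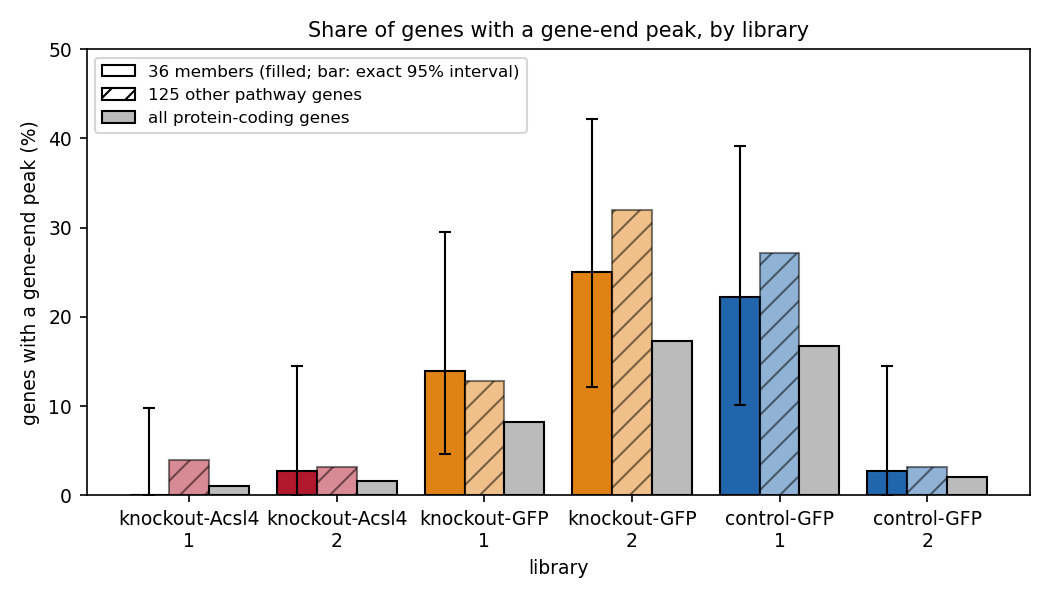
Percentage of genes with a gene-end peak (vertical axis) in each of the 6 libraries (horizontal axis), for the 36 lipid genes (solid bars, with exact 95% intervals), 125 further genes of the same pathways (hatched) and all 21883 protein-coding genes (grey). The lipid genes reached 13.9%, 25.0% and 22.2% in knockout-GFP 1, knockout-GFP 2 and control-GFP 1, and 2.78% or less in the other 3 libraries.

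By role, 2 of the 5 activation and uptake genes, 5 of the 10 oxidation genes, 3 of the 10 synthesis genes, 2 of the 7 remodelling genes and 1 of the 4 transcription factors were marked in at least 1 library, beside 24.5% of all genes. Of the oxidation genes, 1 was marked in knockout-GFP 1 and 2 in knockout-GFP 2, against 4 in control-GFP 1 and 0 in control-GFP 2. Among the 4, Hadha and Hadhb counted through a single shared peak. For the remodelling genes the counts were 2 of 7 in each knockout-GFP library against 1 in control-GFP 1 and 0 in control-GFP 2. In the same order of libraries, they were 1 and 2 against 1 and 1 for activation and uptake. For synthesis they were 1 and 2 against 2 and 0, and for the transcription factors 0 and 1 against 0 and 0. Over all genes these libraries marked 8.19% and 17.3% in knockout-GFP 1 and 2, against 16.7% and 2.0% in control-GFP 1 and 2. With the better 50% of each list, the genes marked in any library fell from 5 to 1 for oxidation, from 2 to 1 for activation and uptake and from 3 to 1 for synthesis. They stayed at 2 for remodelling and 1 for the transcription factors. This followed from the ranks of the peaks and is no separate check of the roles. Without control-GFP 1 the oxidation count was 2, and those of the other roles did not change. In the wider list described below, 28 oxidation genes gave 6 and 10 against 8 and 2, and 40 remodelling genes gave 6 and 15 against 12 and 0. With 2 libraries against 2, the smallest two-sided exact permutation p is 0.333, and no difference between groups was tested.

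**Figure D2:**
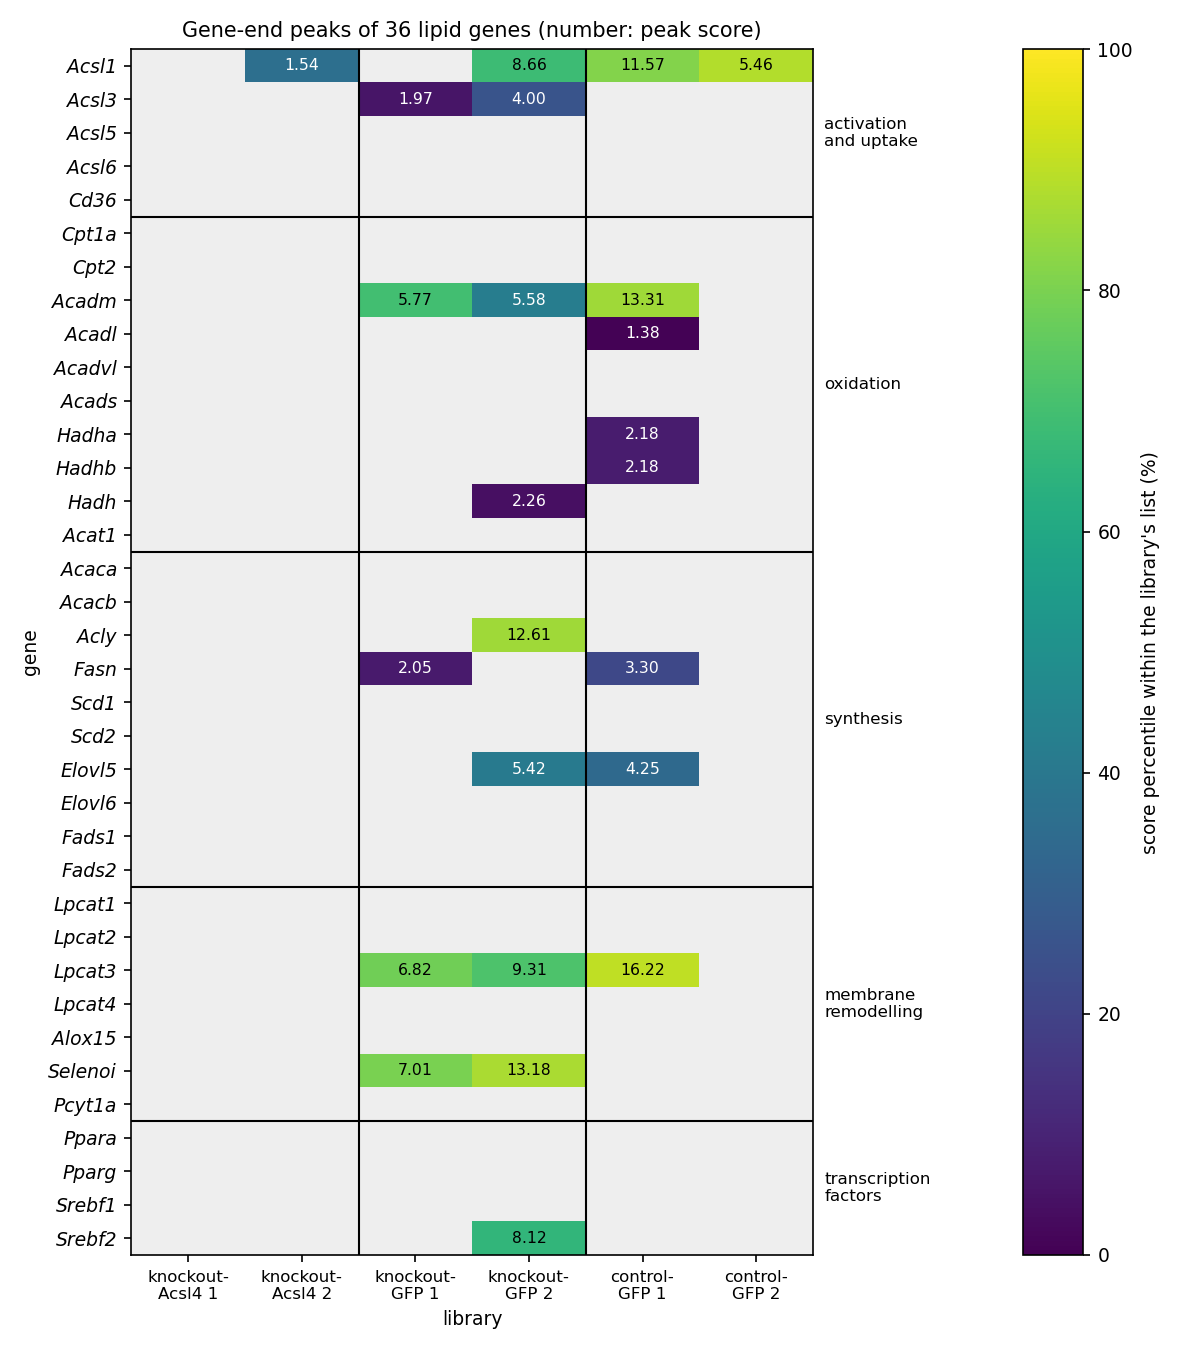
Gene-end peaks of the 36 lipid genes (rows, by role) in the 6 libraries (columns). Colour gives the percentile of the peak's score within its own list, the printed number is the deposited score, and grey means no peak. Filled cells gather in knockout-GFP 1, knockout-GFP 2 and control-GFP 1, and 23 rows are empty.

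Among the acyl-CoA synthetases, the relatives of Acsl4, Acsl1 and Acsl3 were marked and Acsl5 and Acsl6 were not. The deposited score of a peak, read as −log10 of a q-value, is the authors' own and was used only to describe peaks, and its percentile gives the rank within the list of that library. Acsl1, a broad long-chain synthetase (chromosome 8, 46471037 to 46536051), had no peak in knockout-Acsl4 1 and a peak of score 1.54 (percentile 36.5) in knockout-Acsl4 2. It had none in knockout-GFP 1 and one of score 8.66 (68.4) in knockout-GFP 2, and the control-GFP libraries gave 11.57 (81.5) and 5.46 (88.5). The knockout-Acsl4 2 peak was not at the place of the others. The knockout-GFP 2 and control-GFP peaks overlapped one another just before the start, and that of control-GFP 2 ran on across it. The peak of knockout-Acsl4 2 instead spanned 46471227 to 46471583, with its midpoint 368 bp after the start. It lay 158 to 226 bp clear of the other 3 peaks. In the libraries that did not mark Acsl1, knockout-Acsl4 1 and knockout-GFP 1, the nearest peaks lay 15776 and 15825 bp beyond the gene, at the end of its neighbour Cenpu. The promoter is shown because it is the only one of the list called in both control-GFP libraries. Here and below, the promoter sequences are RefSeq's for GRCm38.p6, run 5′ to 3′ from 250 bases before to 50 after the gene's start, and carry in capitals the bases that lie inside the peaks of all libraries whose peaks overlap there, which for Acsl1 are knockout-GFP 2 and both control-GFP libraries.
Acsl1 promoter, chr8:46470787-46471086, plus strand: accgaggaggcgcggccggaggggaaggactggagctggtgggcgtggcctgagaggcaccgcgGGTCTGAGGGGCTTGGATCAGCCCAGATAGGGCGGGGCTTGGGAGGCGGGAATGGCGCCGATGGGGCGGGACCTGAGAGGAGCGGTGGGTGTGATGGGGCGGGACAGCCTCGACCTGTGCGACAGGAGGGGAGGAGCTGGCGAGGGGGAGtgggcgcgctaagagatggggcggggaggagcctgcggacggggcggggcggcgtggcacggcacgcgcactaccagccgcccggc
The shared stretch was 150 bp long and held 3 of the 7 GC boxes of this promoter (GGGCGG, the letters bound by Sp-family factors, counted on both strands with overlaps allowed).

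Acsl3, a synthetase found on the endoplasmic reticulum and lipid droplets (chromosome 1, 78657825 to 78707743), was marked in both knockout-GFP libraries and in no other. Its peaks had scores of 1.97 in knockout-GFP 1 and 4.0 in knockout-GFP 2, which put them at percentiles 5.78 and 25.9, among the weaker peaks of each list. The nearest peak to either end of the gene was 21111 bp away in knockout-Acsl4 2 and 145561 bp away in control-GFP 2, and over 1 Mb away in knockout-Acsl4 1 and control-GFP 1. Both peaks crossed the start of the gene and also served Utp14b, whose gene end lies there too.
Acsl3 promoter, chr1:78657575-78657874, plus strand: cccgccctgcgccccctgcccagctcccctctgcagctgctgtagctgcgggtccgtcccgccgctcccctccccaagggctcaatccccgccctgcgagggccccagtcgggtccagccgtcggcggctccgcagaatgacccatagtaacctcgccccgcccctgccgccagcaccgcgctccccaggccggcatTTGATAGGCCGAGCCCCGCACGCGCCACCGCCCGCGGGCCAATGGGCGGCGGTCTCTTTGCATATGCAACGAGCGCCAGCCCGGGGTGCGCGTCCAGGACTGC
The 125 bp common to the peaks held 2 of the 5 GC boxes and the CCAAT box (CCAAT, the NF-Y letters). The nearest peak to Acsl6 lay 2777 bp from the gene in control-GFP 1, with a score of 1.4, and that to Acsl5 lay 135560 bp away in knockout-Acsl4 2. Cd36, a fatty acid uptake receptor, had no gene-end peak, and a peak of score 3.04 inside the gene in knockout-GFP 1, 25570 bp from its nearer end.

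The β-oxidation genes were led by Acadm, the medium-chain acyl-CoA dehydrogenase (chromosome 3, 153922353 to 153944643). It had no peak in either knockout-Acsl4 library, scores of 5.77 (percentile 69.7) and 5.58 (42.5) in knockout-GFP 1 and 2, and 13.31 (85.7) in control-GFP 1 with none in control-GFP 2. The 3 peaks all crossed the start of the gene and shared 211 bp.
Acadm promoter, chr3:153944594-153944893, minus strand: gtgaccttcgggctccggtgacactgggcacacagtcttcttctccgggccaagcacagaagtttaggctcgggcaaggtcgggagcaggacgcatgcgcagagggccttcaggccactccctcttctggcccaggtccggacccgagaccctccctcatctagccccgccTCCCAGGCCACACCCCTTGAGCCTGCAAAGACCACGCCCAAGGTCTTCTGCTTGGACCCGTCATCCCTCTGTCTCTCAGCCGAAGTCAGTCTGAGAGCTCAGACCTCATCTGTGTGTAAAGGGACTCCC
This promoter had none of the searched motifs and a low density of CpG, with 0.459 of the CpG count expected from its bases, the lowest among the marked members. The other marked oxidation genes had a peak in a single library and with a low score. Acadl, the long-chain dehydrogenase, had a score of 1.38 in control-GFP 1 (percentile 0.416), and Hadh, the short-chain 3-hydroxyacyl-CoA dehydrogenase that also restrains insulin secretion in β-cells, one of 2.26 in knockout-GFP 2 (4.18). Hadha and Hadhb encode the subunits of the mitochondrial trifunctional protein, lie head to head on chromosome 5 with 272 bp between them, and shared a peak of score 2.18 (7.47) in control-GFP 1. That peak, from 30155004 to 30155220, lay wholly between the 2 starts and is shown for that reason, within the promoter window of Hadhb.
Hadhb promoter, chr5:30155003-30155302, plus strand: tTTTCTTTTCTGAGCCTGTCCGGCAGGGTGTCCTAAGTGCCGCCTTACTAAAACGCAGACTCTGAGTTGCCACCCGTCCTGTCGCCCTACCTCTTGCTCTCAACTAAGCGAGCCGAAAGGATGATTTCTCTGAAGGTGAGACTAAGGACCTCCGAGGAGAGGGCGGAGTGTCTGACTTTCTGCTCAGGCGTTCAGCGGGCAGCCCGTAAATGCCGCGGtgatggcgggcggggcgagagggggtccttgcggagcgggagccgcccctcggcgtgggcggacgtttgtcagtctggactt
No gene-end peak was called for the carnitine shuttle enzymes Cpt1a and Cpt2, the dehydrogenases Acadvl and Acads, or the acetyl-CoA acetyltransferase Acat1. The nearest peak to Acadvl lay 6021 bp away in knockout-GFP 2, at no gene end, and that to Cpt2 lay 13779 bp away in control-GFP 1, at the neighbour Czib. For Acads and Acat1 it lay 38844 and 43458 bp away and for Cpt1a 189810 bp away, all in knockout-GFP 2.

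Among the synthesis genes, Elovl5, the elongase of polyunsaturated fatty acids (chromosome 9, 77917365 to 77984519), was marked in knockout-GFP 2 with a score of 5.42 (percentile 40.9) and in control-GFP 1 with 4.25 (34.0), and not in knockout-Acsl4 1 or 2, knockout-GFP 1 or control-GFP 2. The control-GFP 1 peak lay wholly inside the knockout-GFP 2 peak, over the start of the gene.
Elovl5 promoter, chr9:77917115-77917414, plus strand: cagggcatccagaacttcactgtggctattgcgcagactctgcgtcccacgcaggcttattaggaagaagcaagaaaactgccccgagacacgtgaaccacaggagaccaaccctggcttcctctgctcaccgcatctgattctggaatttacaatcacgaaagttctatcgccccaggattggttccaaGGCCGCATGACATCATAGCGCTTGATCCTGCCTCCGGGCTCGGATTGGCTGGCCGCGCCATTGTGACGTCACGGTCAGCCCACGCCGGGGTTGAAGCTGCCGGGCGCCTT
The 133 bp in common held a full cAMP response element (TGACGTCA), found in 1 of the 13 marked members, in 4.12% of the promoters of all marked genes and in 1.79% of all promoters in the table. With 1 promoter per gene, 2.33% of all genes held this element. Acly, the ATP citrate lyase that makes cytosolic acetyl-CoA, had one of the stronger member peaks, with a score of 12.61 (85.9) in knockout-GFP 2, and none in the other 5 libraries. Its rank was 600 among the 4257 peaks of that list. Fasn, the fatty acid synthase, was marked with low scores of 2.05 (7.12) in knockout-GFP 1 and 3.30 (21.7) in control-GFP 1, and these peaks were 119 bp apart. The knockout-GFP 1 peak crossed the start given in the promoter table, which lies 619 bp inside the gene record. The control-GFP 1 peak had its midpoint 279 bp after that start. Fasn thus counted in 2 libraries without a site in common.

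No gene-end peak was called for Acaca, Acacb, Scd1, Scd2, Elovl6, Fads1 or Fads2, which make malonyl-CoA, desaturate or elongate. Acaca, the acetyl-CoA carboxylase of lipogenesis, instead had a peak inside the gene in 2 libraries. It spanned 84179515 to 84179699 on chromosome 11 with a score of 10.04 (76.2) in knockout-GFP 2, and 84179567 to 84179693 with 2.38 (10.3) in control-GFP 1, about 49.9 kb from the gene's start. Further peaks inside marked genes, away from their ends, were called for Acly (score 2.66) and Hadh (2.66) in knockout-Acsl4 2 and for Lpcat3 (2.18) in control-GFP 1. Elovl6 had separate peaks inside the gene in knockout-Acsl4 2 (score 3.71) and knockout-GFP 2 (7.20). Fads1 had a peak 7092 bp from its nearer end in knockout-GFP 2 and 7074 bp from it in control-GFP 1, at the ends of Fen1 and Tmem258. The nearest peak lay 15410 bp from Acacb and 79998 bp from Fads2 in knockout-GFP 2, and 5410 bp from Scd1 and 26316 bp from Scd2 in control-GFP 1.

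Of the membrane remodelling genes, Lpcat3 and Selenoi were marked. Lpcat3, the acyltransferase that places polyunsaturated chains in membrane phospholipids (chromosome 6, 124663094 to 124704716), had no peak in knockout-Acsl4 1 or 2. It scored 6.82 (percentile 78.3) and 9.31 (72.2) in knockout-GFP 1 and 2, and 16.22 (90.3) in control-GFP 1 with none in control-GFP 2. The control-GFP 1 peak was 568 bp wide, the widest of all member peaks, and contained the 238 and 246 bp peaks of knockout-GFP 1 and 2. These ended 42 and 19 bp before the start given in the promoter table.
Lpcat3 promoter, chr6:124662854-124663153, plus strand: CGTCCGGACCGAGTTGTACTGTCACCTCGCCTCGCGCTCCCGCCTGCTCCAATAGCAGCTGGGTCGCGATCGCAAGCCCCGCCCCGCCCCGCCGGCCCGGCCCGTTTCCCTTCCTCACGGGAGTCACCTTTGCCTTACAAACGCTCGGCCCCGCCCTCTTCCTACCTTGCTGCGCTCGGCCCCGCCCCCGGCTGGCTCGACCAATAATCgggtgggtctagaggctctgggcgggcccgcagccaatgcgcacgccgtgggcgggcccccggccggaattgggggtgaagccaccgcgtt
The capitals of Lpcat3 held 4 of its 6 GC boxes and 2 of its 4 CCAAT boxes. Selenoi, the selenoprotein that makes phosphatidylethanolamine in the last step of the CDP-ethanolamine pathway (chromosome 5, 30232581 to 30272430), was marked in both knockout-GFP libraries and in no other. Its scores were 7.01 (79.7) in knockout-GFP 1 and 13.18 (87.3) in knockout-GFP 2, so both peaks were among the stronger of their lists. In the other libraries the nearest peak to an end of the gene was 77361 bp away in control-GFP 1, and that peak was the one between Hadha and Hadhb. It was 611543 bp away in control-GFP 2, 633907 bp in knockout-Acsl4 2 and 2456525 bp in knockout-Acsl4 1. Hadha, Hadhb and Selenoi lie within 153 kb of one another, and in this stretch control-GFP 1 had the Hadha and Hadhb peak without the Selenoi peak, while both knockout-GFP libraries had the reverse. Control-GFP 2 and the knockout-Acsl4 libraries had neither peak. The Hadha and Hadhb peak was among the weakest of its list (score 2.18, percentile 7.47), and this contrast was not tested.
Selenoi promoter, chr5:30232331-30232630, plus strand: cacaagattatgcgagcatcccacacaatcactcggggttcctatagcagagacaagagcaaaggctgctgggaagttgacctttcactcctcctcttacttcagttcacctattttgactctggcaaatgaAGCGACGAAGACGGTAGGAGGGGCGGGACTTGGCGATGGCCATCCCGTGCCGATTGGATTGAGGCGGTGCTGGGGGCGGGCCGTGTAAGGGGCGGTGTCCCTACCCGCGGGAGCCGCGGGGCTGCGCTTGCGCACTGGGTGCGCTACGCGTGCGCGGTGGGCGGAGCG
The narrower knockout-GFP 1 peak lay inside that of knockout-GFP 2, and its 197 bp crossed the start of Selenoi. All 4 GC boxes, the CCAAT box and a match to the NRF1 motif stood in capitals. Lpcat1, Lpcat2, Lpcat4, the lipoxygenase Alox15 and Pcyt1a, the rate-limiting enzyme of phosphatidylcholine synthesis, had no gene-end peak. For Alox15, Pcyt1a, Lpcat1 and Lpcat2 the nearest peak was in knockout-Acsl4 2, at 28215, 130681, 192917 and 226532 bp.

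Of the transcription factors, Srebf2, the regulator of sterol synthesis (chromosome 15, 82147269 to 82205379), was marked in knockout-GFP 2 with a score of 8.12 (percentile 65.7) and in no other library. Srebf1 and Pparg, regulators of fatty acid synthesis and storage, and Ppara, a regulator of fatty acid oxidation, had no gene-end peak. Pparg had a peak of score 1.8 inside the gene in control-GFP 2, 30074 bp from its nearer end. The nearest peak to Ppara lay 4827 bp away in knockout-GFP 2, at the end of Cdpf1, and that to Srebf1 lay 83693 bp away in the same library.

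All 24 pairs of a member and a peak lay at the 5′ end of the gene, although the window took in both ends. Over all genes with a known strand the share was 95.8% (8337 of 8699 pairs), so this is a property of marked genes in general. Knockout-Acsl4 2, whose list is the longest of the 6, stood apart with 72.6%, against 95.4% to 97.0% in the other 5 libraries. The median percentile of member peaks was 69.7 in knockout-GFP 1, 65.7 in knockout-GFP 2 and 34.0 in control-GFP 1, beside 53.2, 51.9 and 54.0 for all gene-end peaks of those lists. These medians rest on the peaks of only 5, 9 and 8 members, which differ between the libraries. Acadm and Lpcat3, the members marked in all 3 of these libraries, had their highest percentiles in control-GFP 1 (85.7 and 90.3). The member peaks were 107 to 568 bp wide, with a median of 219 bp. In 14 of the 24 pairs the peak covered a start in the promoter table, and no peak stood further than 190 bp from such a start. The table start nearest to each peak was taken, so this closeness is in part built in. For Fasn that start lies 619 bp inside the gene record. Of the 7 genes marked in 2 or more libraries, 6 had peaks that overlapped between libraries, Fasn being the exception. Of the 16 pairs of peaks at the same gene in different libraries, 12 overlapped, and 3 of the 4 that did not involved the Acsl1 peak of knockout-Acsl4 2.

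**Figure D3:**
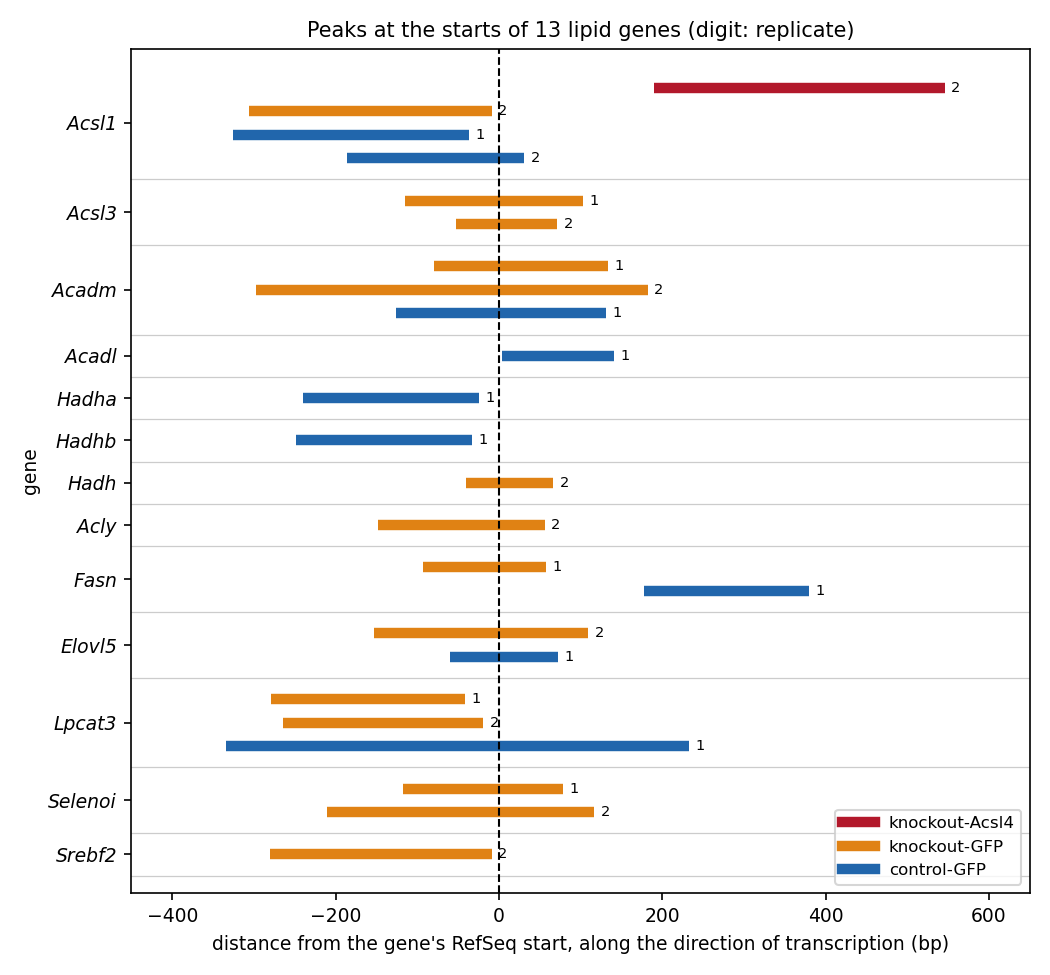
Extent of each gene-end peak of the 13 marked lipid genes, coloured by group, with the replicate number beside it. The horizontal axis gives the distance in bp along the direction of transcription from the RefSeq promoter-table start nearest to the peak. Peaks lie over or just beside the start, except that of Acsl1 in knockout-Acsl4 2 and that of Fasn in control-GFP 1.

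Knockout-GFP islets set against control-GFP islets ask how open chromatin differs without Rictor. A peak in knockout-GFP 1 and 2 and no peak in control-GFP 1 and 2 was found for 2 of the 36 genes, Acsl3 and Selenoi (5.56%, against 1.04% of all genes), and the opposite pattern by 0 (0.0914% of all genes). Both knockout-GFP libraries marked 4 members (11.1%, against 6.6% of all genes), and 2 of these, Acadm and Lpcat3, were also marked in control-GFP 1 (5.56%, against 5.52% of all genes). Control-GFP 1 alone of the 4 libraries marked Acadl, Hadha and Hadhb. Because control-GFP 2 marked 2.0% of all genes, this pattern rests in effect on control-GFP 1, and without control-GFP 2 it took in 2 members (1.08% of all genes) and its opposite 3 (4.4% of all genes). Without control-GFP 1 it was held by 4 members (5.59% of all genes), and without knockout-GFP 1 by 5 (5.54% of all genes). The Selenoi pattern remained, and that of Acsl3 did not, when the 2206 best peaks of each of knockout-GFP 1, knockout-GFP 2 and control-GFP 1 were compared, where 1.34% of all genes held it. Shortening a list can only remove peaks, so this outcome followed from the ranks in knockout-GFP 2. These were 540 for the Selenoi peak and 3095 for the Acsl3 peak, and the comparison is no independent check of either pattern.

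Knockout-Acsl4 against knockout-GFP asks what the added Acsl4 does without Rictor. No member had a peak in both knockout-Acsl4 libraries and in neither knockout-GFP library (0.00914% of all genes), while 4 had the opposite pattern, namely Acsl3, Acadm, Lpcat3 and Selenoi (11.1%, against 5.79% of all genes). Each of the 4 members marked in both knockout-GFP libraries was thus unmarked in both knockout-Acsl4 libraries. Those libraries marked so few genes of any kind that their part in this count was not tested, and it does not show a loss of open chromatin. Without knockout-GFP 1 the count was 8 (15.9% of all genes). Knockout-Acsl4 against control-GFP gave 0 members marked in both knockout-Acsl4 libraries only (0.00457% of all genes) and 0 marked in both control-GFP libraries only (1.32% of all genes). Acsl1, the member marked in both control-GFP libraries, failed the last pattern through its separate peak in knockout-Acsl4 2, and without knockout-Acsl4 2 the count was 1 (1.38% of all genes). Without control-GFP 2 it was 7 (15.3% of all genes).

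Promoter composition was described for the 31 members with an entry in the promoter table. Acat1, Scd1, Scd2, Fads1 and Alox15 have none. Where the table gives a gene several starts, the start nearest its peaks was used for a marked member. For all other genes it was the start nearest the gene's 5′ end, so the rule differs between the sets compared here and in the motif counts. The 13 marked members had a median of 68.7% G and C and 0.859 of the expected CpG count, against 57.7% and 0.688 in the 18 unmarked ones. In 5 unmarked members, Acaca, Acacb, Cd36, Acsl5 and Srebf1, the table's start lies over 1000 bp from both ends of the gene record, and no peak lay within 1000 bp of a table start of these either. Without them, a choice made after seeing the data, the unmarked medians were 62.7% and 0.736, over 13 members with 50.7% to 80.3% G and C. Over all genes the medians were 63.0% and 0.823 where marked and 53.3% and 0.399 where not, so marked lipid genes had the GC-rich starts of marked genes in general. Among promoters above 0.6 of the expected CpG count, 10 of 21 members were marked (47.6%), beside 43.8% of all genes. Among the remainder, 3 of 10 members, which were Acadm, Acly and Hadh, were marked (30.0%), beside 7.83% of all genes. That share rests on 3 genes and was not tested. Acly and Hadh were marked in knockout-GFP 2 only, at percentiles 85.9 and 4.18.

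**Figure D4:**
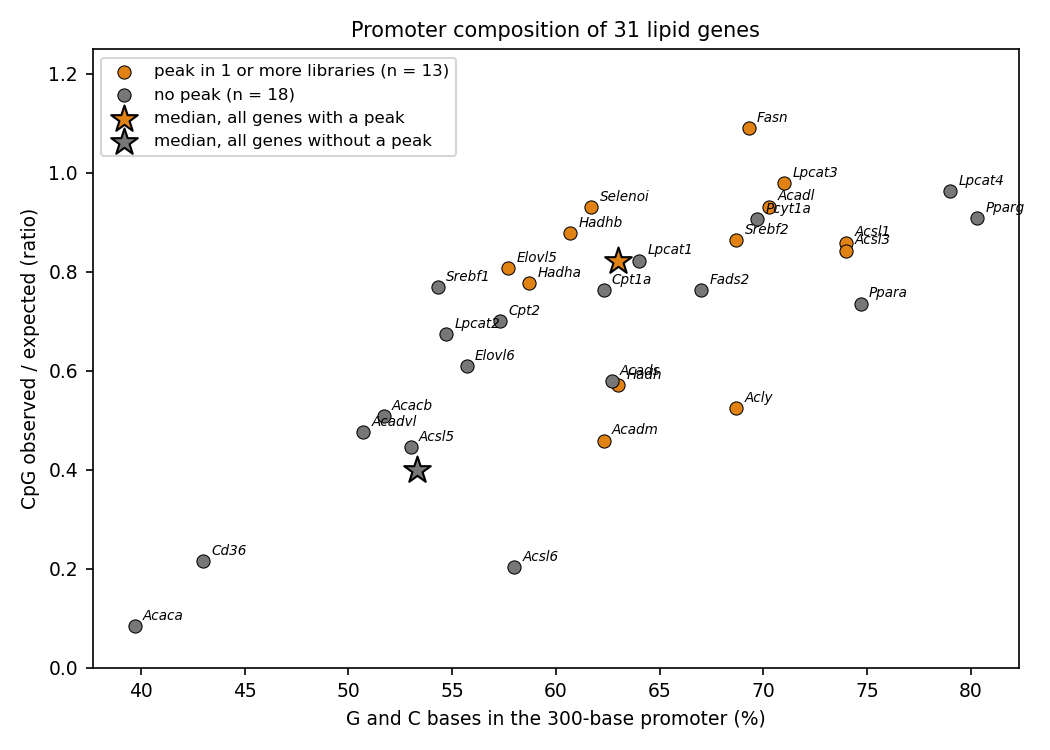
Percentage of G and C (horizontal axis) and ratio of observed to expected CpG (vertical axis) in the 300-base promoters of 31 lipid genes, with (orange) and without (grey) a gene-end peak. Stars are medians over all genes. Marked genes lie at 57.7% to 74.0% G and C, and unmarked genes at 39.7% to 80.3%, or 50.7% to 80.3% without 5 whose promoter-table start lies away from the gene ends searched.

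A GC box stood in 10 of the 13 marked promoters (76.9%) and 12 of the 18 unmarked ones (66.7%), beside 72.1% of all marked genes and 35.7% of all 32851 promoters in the table. Shares of the table count every promoter of a gene, whereas the other shares count 1 per gene. With 1 promoter for each of 17491 genes, the GC box stood in 46.3% and the CCAAT box in 39.2%. The NRF1 motif then stood in 6.66% and the E-box in 7.91%. A CCAAT box stood in 8 marked (61.5%) and 7 unmarked ones (38.9%), beside 46.5% of all marked genes and 37.4% of the table. The NRF1 motif was in 2 marked (15.4%) and 3 unmarked promoters (16.7%), beside 14.1% of all marked genes and 4.6% of the table. The E-box CACGTG was in 1 marked and 0 unmarked promoters, beside 10.4% of all marked genes and 7.15% of the table. Searches on both strands for the sterol regulatory element (TCACNCCAC), the PPAR element (a direct repeat of AGGTCA with 1 base between), a FOXO site (GTAAACA) and the TATA box (TATAAA) found none in the 13 marked promoters. In that order, the shares were 0.997%, 0.0453%, 2.11% and 5.39% of all marked genes, and 1.24%, 0.0396%, 3.65% and 13.6% of the table. Among unmarked members, Pcyt1a held the sterol element, Elovl6 the FOXO letters, and Acacb and Lpcat2 the TATA box.

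A wider list of 125 genes of the same pathways was counted in the same way. Those named here were chosen after their values were seen. At least 1 library marked 54 of them (43.2%, against 24.5% of all genes), at least 2 marked 29 (23.2%, against 13.9%) and at least 3 marked 15 (12.0%, against 6.51%). These differences were not tested, and the 125 genes were not divided by promoter composition. Over all genes, 43.8% of those above 0.6 of the expected CpG count were marked, and 7.83% of the remainder. Knockout-Acsl4 1 and 2 marked 5 and 4 (4.0% and 3.2%, beside 1.02% and 1.57% of all genes). Knockout-GFP 1 and 2 marked 16 and 40 (12.8% and 32.0%, beside 8.19% and 17.3%), and control-GFP 1 and 2 marked 34 and 4 (27.2% and 3.2%, beside 16.7% and 2.0%). Hmgcs1, which opens the mevalonate pathway of sterol synthesis, was marked in 5 libraries. Its score was 1.49 in knockout-Acsl4 1 and 1.49 in knockout-Acsl4 2 at the other end of the gene, 17.82 in knockout-GFP 2, and 26.28 and 3.77 in control-GFP 1 and 2. Sqle, a later enzyme of sterol synthesis, and Insig1, which restrains it, were marked in 3 libraries each, with overlapping peaks. Hsd17b12 of fatty acid elongation, Agpat1 of phosphatidic acid synthesis and Etfdh, which passes electrons from β-oxidation to the respiratory chain, were marked in 4 each. Of these 125 genes, 1 was marked in both knockout-GFP libraries and neither control-GFP library (0.8%, against 1.04% of all genes), Pemt, which methylates phosphatidylethanolamine, and 0 had the opposite pattern. In both knockout-GFP libraries and no knockout-Acsl4 library 9 were marked (7.2%, against 5.79% of all genes), and 0 in both knockout-Acsl4 libraries and no knockout-GFP library.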

How the data were processed

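Each deposited file lists the ATAC-seq peaks of a single library, without a header, with a score in its column 5. This deposited score is taken to be −log10 of a q-value from the peak caller, since the smallest value of each deposited list lies just above 1.3, the −log10 of 0.05. Per the submitters' processing notes, MACS2 2.1.1 and BWA 0.7.10 were among the tools, beside SAMtools, Trimmomatic and FastQC, with no settings given here. The notes also name hg38 and GRCh38, but the chromosomes are those of mouse, and the peaks met gene starts of GRCm38, so that build was used, with coordinates counted from 1. Genes came from RefSeq's GRCm38.p6 table, and all 36 members matched. Of 127 further pathway symbols 125 matched.

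Overlap needed at least 1 bp. Marking was tested on simulated peaks. Percentiles rank scores within a list. Replicates were compared by library, with no test, since libraries of a group are 2 and genes are not replicates. Depth was not given in the sources used here. Members and lists were chosen with earlier results of these data known. Every member is accounted for. Described in full are members marked in 3 or more libraries or in both libraries of one group and neither of another, and the Acsl family. Members without a gene-end peak are named, all but 1 with their nearest peak. Neighbouring genes were named after the values were seen. Results that need certain withheld gene names are not reported here. The alternatives tried were other windows, stricter score limits, equal list lengths, midpoints in place of overlap, and leaving out each library. Python 3.11.15 with pandas 2.3.3 and scipy 1.17.1 was used.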

Additional observations from a re-analysis of the deposited data

How the results depend on the processing

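No paired analysis was possible because the counts come from no test and the replicate numbers mark no shared animal or day in the labels. The number of lipid genes marked in at least 1 library was 13, and 12, 14 and 13 with windows of 500 bp, 3000 bp and with peak midpoints. It was 6 with the better 50% of each list, 3 with the 525 best peaks of each list, and 10 to 13 when a library was left out. The knockout-GFP-only count against control-GFP (2 genes) was 1 with the better 50%, 0 with the 525 best peaks, and 2 to 5 when a library was left out, and the control-GFP-only count (0 genes) was 0 to 3. The knockout-GFP-only count against knockout-Acsl4 (4 genes) was 2 with the better 50%, 0 with the 525 best peaks, and 4 to 8 when a library was left out. The control-GFP-only count against knockout-Acsl4 (0 genes) was 1 with the better 50% and 0 to 7 when a library was left out. Both knockout-Acsl4-only counts stayed at 0 in these settings. The fewer peaks of the stricter lists leave fewer genes marked.

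Some settings were chosen after seeing the data. With windows round the starts of the promoter table, 13 genes were marked and the knockout-GFP-only counts were 2 and 4. With knockout-GFP 1, knockout-GFP 2 and control-GFP 1 alone, 13 genes were marked, 2 were knockout-GFP-only and 3 control-GFP-only, and with their 2206 best peaks each, 8 were marked and 1 was knockout-GFP-only. Of 199 comparisons of single libraries, roles and genes, 158 stayed within 1.5 times and 41 moved. This tally does not measure stability, because counts of 0, as for knockout-Acsl4 1, Acsl5 and Acsl6, cannot fall in shorter lists or narrower windows. Most moves came from the shortened lists. The members marked in knockout-GFP 2 fell from 9 to 5 with the better 50% and to 0 with all lists cut to equal length. In control-GFP 1 they fell from 8 to 3 and to 1. With the wider window Acsl6 was marked in 1 library, through a peak 2777 bp from its end in control-GFP 1, and no member peak lay between 797 and 2777 bp of a gene end. Fasn was unmarked with the 500 bp window, its peaks lying 526 and 797 bp from the end of the gene record. The unequal lists limit every group comparison here.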
